A study of Homo sapiens with 14 samples.

Results

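The genes described here are 6 members of the GDNF family signalling system: the receptor tyrosine kinase RET, its ligand-binding co-receptors GFRA1, GFRA2 and GFRA3, and the ligands GDNF and NRTN (neurturin). They were taken by symbol from the 57445 gene entries of the undifferentiated and day 11 count tables. The set was chosen by a readout of these libraries, the lower GFRA1 level in CPM at day 11 in cultures given more CHIR99021 (CHIR), so the values of the 6 genes across CHIR doses are given as a description, with no test.

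GDNF family ligands are secreted factors that bind a GPI-anchored GFRα co-receptor, and the complex then brings together RET molecules, which signal through adaptor proteins to the RAS-ERK and PI3K pathways. GDNF binds mainly GFRA1, neurturin GFRA2 and artemin GFRA3. GDNF was found as a survival factor for midbrain dopamine neurons, which carry RET and GFRA1 when mature, and the same pathway is needed for enteric neurons, motor neurons and branching of the ureteric bud in the kidney.

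The study sequenced RNA of the established human embryonic stem cell line H9 (WA-09) and of its derivatives on the path to midbrain dopamine neurons, with 7 groups of 2 libraries (14 in all). The groups were undifferentiated cells (hPSC), day 11 cultures with 0.7, 3, 5 or 7.5 µM CHIR from day 4, and cultures of the 7.5 µM arm at day 16 and day 30. CHIR inhibits GSK3 and so activates WNT signalling. All differentiated arms shared 0.7 µM CHIR on days 0 to 3, Sonic hedgehog C25II, the BMP inhibitor LDN and the TGF-beta and activin inhibitor SB431542 up to day 7, and from day 10 a medium with BDNF, ascorbic acid, TGFβ3, dbcAMP, 3 µM CHIR and GDNF protein itself, so no day 11 arm lacked added ligand. The cells came from 1 line. No label says that replicates were separate cultures, and p-values then reflect the spread of these libraries alone, which may be technical. Day 16 of the labels is day 20 in the series text, and the boost ends at day 9 in that text and at day 10 in the protocol.

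RefSeq promoter windows (GRCh38.p14, 250 bases before to 50 after a transcript start) were found for 5 of the 6 genes, 12 windows in all, and GFRA2 had none. A pair of motifs was searched on both strands, since CHIR acts on the WNT pathway and since many promoters are GC-rich: CTTTGAT or CTTTGTT, a core bound by TCF/LEF factors, the nuclear effectors of WNT signalling, and GGGCGG, the GC box bound by SP1. Capitals mark every match, and each sequence is written 5′ to 3′ on the strand of the gene. The windows below are the most upstream of GFRA1, RET and GDNF. GFRA1 (chr10:116274656-116274955, minus strand) differed most across doses, and RET (chr10:43076819-43077118, plus strand) differed most from hPSC. GDNF (chr5:37839992-37840291, minus strand) was the ligand whose mean differed more between 0.7 and 7.5 µM.
GFRA1: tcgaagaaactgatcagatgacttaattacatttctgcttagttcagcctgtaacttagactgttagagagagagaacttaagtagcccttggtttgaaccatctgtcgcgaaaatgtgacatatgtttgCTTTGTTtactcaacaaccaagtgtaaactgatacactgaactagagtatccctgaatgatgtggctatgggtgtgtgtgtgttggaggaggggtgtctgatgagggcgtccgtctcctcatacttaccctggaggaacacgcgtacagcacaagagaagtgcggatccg
RET: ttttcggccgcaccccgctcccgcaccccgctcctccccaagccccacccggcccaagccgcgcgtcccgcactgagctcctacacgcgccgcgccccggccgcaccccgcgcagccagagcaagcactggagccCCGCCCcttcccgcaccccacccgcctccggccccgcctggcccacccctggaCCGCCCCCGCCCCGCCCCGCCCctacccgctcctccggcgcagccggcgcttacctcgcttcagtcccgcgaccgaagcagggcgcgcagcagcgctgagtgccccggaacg
GDNF: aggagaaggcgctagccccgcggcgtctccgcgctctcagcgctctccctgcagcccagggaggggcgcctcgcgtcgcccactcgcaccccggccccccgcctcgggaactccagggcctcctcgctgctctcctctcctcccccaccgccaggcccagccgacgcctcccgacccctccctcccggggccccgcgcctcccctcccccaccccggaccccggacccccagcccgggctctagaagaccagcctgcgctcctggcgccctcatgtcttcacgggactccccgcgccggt

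The GFRA1 window held 1 TCF/LEF match and no GC box, with 45% GC. The RET window held 5 GC boxes, 4 of them in 1 unbroken run, with 78.7% GC, and the GDNF window held neither motif at 77% GC. Over the 12 windows, 2 held a TCF/LEF match (1 of 4 for GFRA1 and the single one for GFRA3) and 6 held a GC box, while 7.61% and 45% of all 35116 RefSeq windows did. The gene counts do not say which start was used.

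Gene counts summed to 20.52 to 44.76 M per library in hPSC and at day 11 and to 5.41 to 6.34 M at days 16 and 30. Levels are gene counts scaled to a total of 1 M in each library (CPM). By group mean, hPSC had all 6 pluripotency markers above 1 CPM and 5 of the 6 floor plate markers under it. The pluripotency markers summed to 4471 to 4864 CPM in hPSC and still to 1168 to 1889 CPM at day 11, with 2 or 3 of the 6 under 1 CPM in each group. At day 11 NANOG was at 0 in both libraries at 0.7, 3 and 5 µM, and all 6 floor plate markers exceeded 1 CPM. The floor plate markers summed to 884 to 1141 CPM at 0.7 µM, 374 to 376 at 3 µM, 307 to 309 at 5 µM and 499 to 583 at 7.5 µM. The hPSC libraries carry other sample codes than those of day 11, so stage and code cannot be told apart. In bulk RNA, fewer cells with a transcript and less transcript per cell cannot be told apart either.

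The tables of days 16 and 30 stood apart from the others. Genes annotated as antisense took 33.2% to 40.3% of their counts, against 0.259% to 0.355% in the other 10 libraries, and protein-coding genes took 49% to 57% against 91.4% to 95.3%. MT-ND6, the mitochondrial protein gene transcribed from the opposite strand to the other 12, held 36.9% to 61.4% of mitochondrial protein-gene counts there and 0.0863% to 0.437% elsewhere. GAPDH was listed at 71 to 290 CPM against 2304 to 9966. Member values at days 16 and 30 are therefore given as listed counts and were not read as expression levels.

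**Figure D1:**
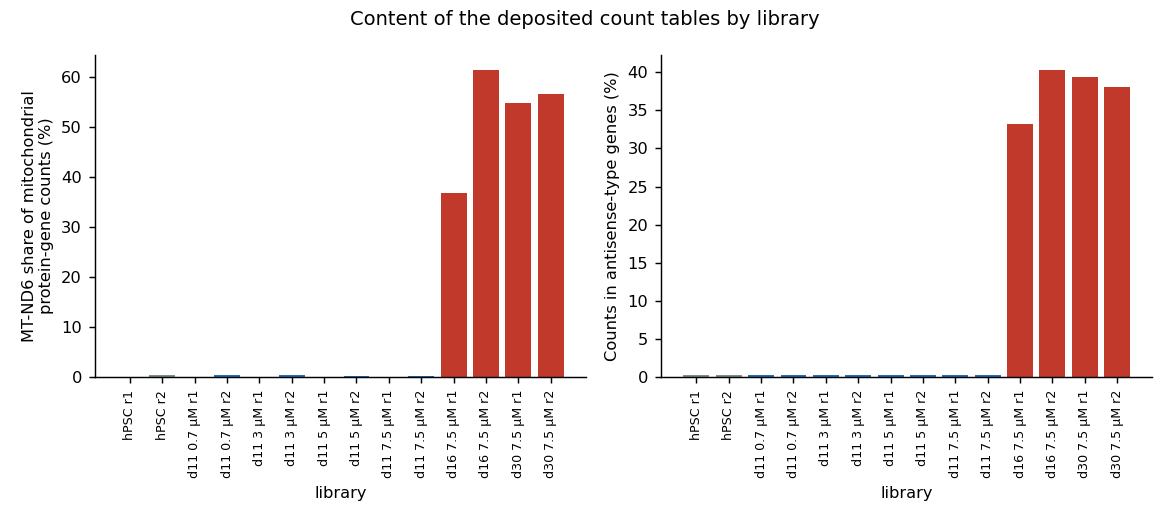
Share of mitochondrial protein-gene counts held by MT-ND6 (left, percent) and share of gene counts in genes annotated as antisense (right, percent), 1 bar for each of the 14 libraries (d, day; r, replicate; grey, hPSC; blue, day 11; red, days 16 and 30). The 4 libraries of days 16 and 30 stand at 36.9% or more and 33.2% or more, and the other 10 stand under 0.5% in both panels.

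RET, the signalling receptor, was found in undifferentiated cells and nearly lost at day 11 at every dose. Its level (ENSG00000165731.13, chromosome 10) was 9.91 and 11.1 CPM in the hPSC replicates. At day 11 it was 0.341 and 0.357 CPM with 0.7 µM CHIR, 0.263 and 0.528 with 3 µM, 0.241 and 0.643 with 5 µM and 0.297 and 0.405 with 7.5 µM. Every day 11 library lay below both hPSC libraries, and the 4 doses overlapped one another. The share of all tested genes that lay apart from hPSC in such a way was not counted, here or for the genes below. These levels rest on 22 to 27 counts for each dose against 599 in hPSC. Over the mean of the 4 doses RET fell 24.1-fold from hPSC (log2 fold change -4.59 ± 0.32 SE, adjusted p = 0.000149, edgeR quasi-likelihood test). Each dose taken alone gave -4.34 to -4.90, and all 4 passed. Of the 8 dopamine neuron markers, 6 were under 1 CPM in hPSC and 4 to 6 in each day 11 group. These markers summed to 15 to 16.8 CPM in hPSC and to 25.3 to 68.6 CPM at day 11, so their sum was higher where RET was lower. The levels of single markers are not given here. Their relation to RET was not tested.

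GFRA1, the co-receptor for GDNF, showed the widest spread of levels over the doses. Its level (ENSG00000151892.10, chromosome 10) was 23.6 and 28.1 CPM in hPSC and 35.7 and 48.8 CPM at day 11 with 0.7 µM CHIR. It was 12.7 and 11.3 CPM with 3 µM, 3.85 and 6.02 with 5 µM and 4.16 and 5.33 with 7.5 µM. The order of group means was 0.7 µM (42.2 ± 9.22 CPM, SD, n = 2), hPSC (25.8 ± 3.2), 3 µM (12 ± 1), 5 µM (4.93 ± 1.53) and 7.5 µM (4.74 ± 0.829). The libraries of neighbours in that order did not overlap, except those of 5 and 7.5 µM. From 0.7 to 3 µM the mean was 3.52 times lower, from 0.7 to 5 µM 8.56 times and from 0.7 to 7.5 µM 8.9 times. The last ratio was 8.59 within replicate 1 and 9.15 within replicate 2.

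Both libraries of each higher dose lay below both at 0.7 µM for GFRA1, as did 12.4% of tested genes at 3 µM, 9.08% at 5 µM and 12.7% at 7.5 µM. This is the contrast that chose the gene. At 3 and 5 µM the floor plate marker sum given above was lower together with GFRA1, and at 7.5 µM it was higher than at 5 µM while GFRA1 was not; the part of these cells in the GFRA1 level was not tested. The day 11 mean over doses joins 1 dose above hPSC with 3 below it, and since those 3 are the values that chose the gene, no test against hPSC is given for it.

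**Figure D2:**
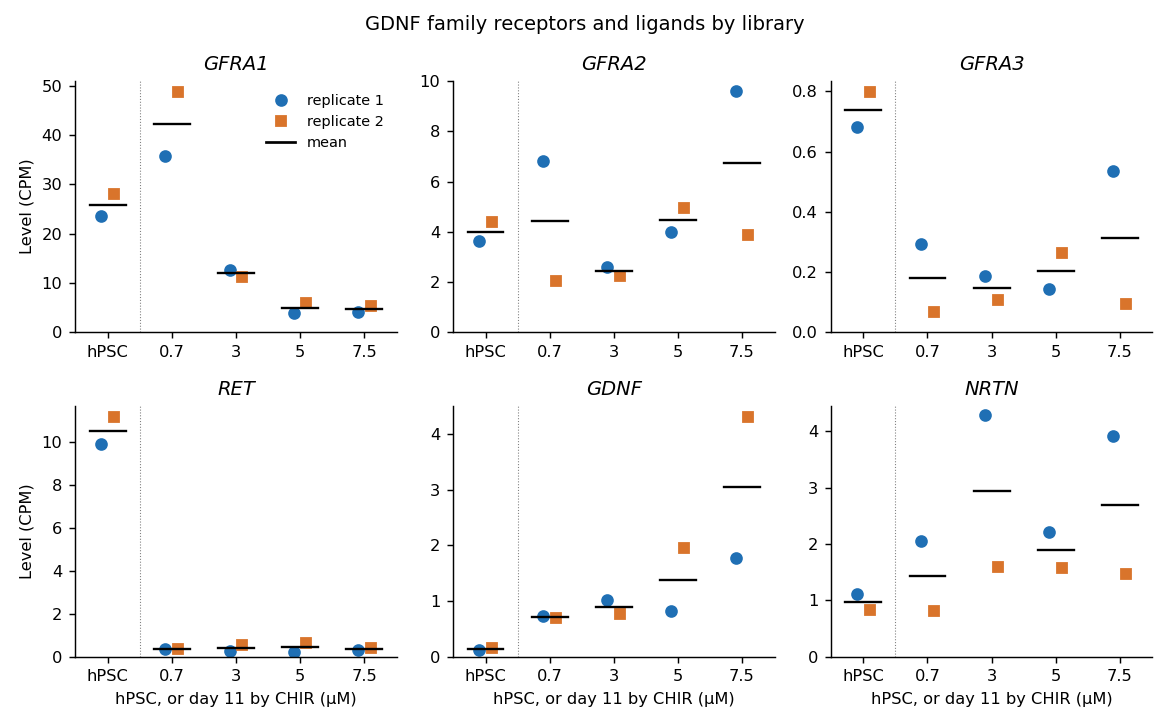
Level in CPM (vertical axis from 0, its own scale in each panel) of the 6 genes in the 2 hPSC libraries and the 8 day 11 libraries by CHIR dose in µM. Circles are replicate 1, squares replicate 2 and bars the mean of both; GFRA1 goes from 35.7 and 48.8 CPM at 0.7 µM to 4.16 and 5.33 at 7.5 µM, GDNF is highest at 7.5 µM, and RET is at 0.643 CPM or less in every day 11 library.

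GFRA2, the co-receptor for neurturin, was found in every library of hPSC and day 11, at 2.03 to 9.62 CPM. Its level (ENSG00000168546.6, chromosome 8) was 3.62 and 4.39 CPM in hPSC, 6.82 and 2.03 at 0.7 µM, 2.59 and 2.25 at 3 µM, 4 and 4.97 at 5 µM and 9.62 and 3.87 at 7.5 µM. The replicates of 0.7 µM and of 7.5 µM differed from each other more than most groups did, and 3 µM was the only dose with both libraries below those of hPSC. The difference of the day 11 mean from hPSC was 0.28 ± 0.54 SE on the log2 scale (adjusted p = 0.747, edgeR), and at 3 µM alone it was -0.34.

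GFRA3, the co-receptor for artemin, was the scarcest of these 3 co-receptors per kilobase of exon in hPSC and at every dose. Its level (ENSG00000146013.6, chromosome 5) was 0.681 and 0.798 CPM in hPSC, then 0.292 and 0.067 at 0.7 µM, 0.188 and 0.106 at 3 µM, 0.144 and 0.263 at 5 µM and 0.535 and 0.0935 at 7.5 µM. All 8 day 11 libraries lay below both of hPSC, a pattern whose share over all tested genes was not counted. The day 11 groups held only 8 to 21 counts each, and the 95% Poisson intervals of 0.7 µM (0.063 to 0.262 CPM) and 7.5 µM (0.198 to 0.488 CPM) overlapped, counting error only. The log2 fold change of day 11 against hPSC was -1.67 ± 0.69 SE, with adjusted p = 0.128 (edgeR) unblocked and adjusted p = 0.00979 when replicate number was a block within day 11. Here and wherever this block is used against hPSC, the p-value leaves out the spread between replicate codes, though hPSC carries other codes. GFRA3 entered this test through its hPSC counts, since it did not pass the filter on low counts in the day 11 libraries alone. The filter thus favoured a lower value at day 11.

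GDNF, the ligand of GFRA1, was close to absent from hPSC and higher at day 11. Its level (ENSG00000168621.10, chromosome 5) was 0.124 and 0.16 CPM in hPSC, from 4 counts in each library. At day 11 it was 0.731 and 0.693 CPM with 0.7 µM, 1.01 and 0.775 with 3 µM, 0.818 and 1.96 with 5 µM and 1.78 and 4.3 with 7.5 µM. Both 0.7 µM libraries lay above both hPSC libraries, and below all 6 libraries of the higher doses. The 0.7 and 3 µM groups held 46 and 49 counts. Their 95% Poisson intervals overlapped (0.516 to 0.94 and 0.659 to 1.18 CPM, counting error only). The 5 µM libraries overlapped those of 3 µM and of 7.5 µM. GDNF entered the test against hPSC through its day 11 counts, so the filter on low counts favoured a higher value at day 11. Over the mean of the doses it was 10-fold higher than in hPSC (log2 fold change 3.33 ± 0.63 SE, adjusted p = 0.00796, edgeR). This call was lost without hPSC replicate 1 (adjusted p = 0.106) or replicate 2 (adjusted p = 0.0901), and for 0.7 µM alone the adjusted p was 0.0556.

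Across doses GDNF and GFRA1 went in opposite directions. The GDNF mean at 7.5 µM was 4.27 times that at 0.7 µM, 2.44 times within replicate 1 and 6.21 times within replicate 2. Both 7.5 µM libraries above both 0.7 µM libraries was a common pattern, seen in 26.1% of tested genes; at 3 and 5 µM 4.39% and 7.4% showed it. GDNF-AS1, an antisense gene that overlaps GDNF, was at 2.97 and 2.35 CPM at 0.7 µM, 0.863 and 1.34 at 3 µM, 0.674 and 1.84 at 5 µM and 2.2 and 3.99 at 7.5 µM. The strand setting of the counting is not given in the sources used here, so reads of GDNF and GDNF-AS1 may not be told apart. From 0.7 to 3 µM GDNF-AS1 was lower in both replicates, where GDNF was not. From 3 to 5 µM and from 5 to 7.5 µM it moved in the same direction as GDNF within each replicate. The part of GDNF-AS1 reads in the GDNF level was not tested.

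NRTN, neurturin, the ligand of GFRA2, was found at a few CPM at most. Its level (ENSG00000171119.2, chromosome 19) was 1.11 and 0.838 CPM in hPSC, 2.05 and 0.804 at 0.7 µM, 4.28 and 1.58 at 3 µM, 2.21 and 1.58 at 5 µM and 3.92 and 1.47 at 7.5 µM. Replicate 1 was the higher of the pair at all 4 doses, and the 6 libraries of 3 µM and above lay over both hPSC libraries. Within each replicate, NRTN was higher at 3, 5 and 7.5 µM than at 0.7 µM. The log2 fold change of day 11 against hPSC was 1.36 ± 0.70 SE, with adjusted p = 0.209 (edgeR) unblocked and adjusted p = 0.00959 when replicate number was a block within day 11.

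Of the 5 genes other than GFRA1, 2 passed in day 11 against hPSC without a block (RET lower, GDNF higher), where 21.1% of the 19672 tested genes did, 13.3% lower and 7.85% higher. With the block within day 11, 4 of the 5 passed (GFRA3 lower and NRTN higher besides), where 54.6% of tested genes did, 29.6% lower and 25% higher. That block takes the spread between replicate codes out of the day 11 libraries. Since hPSC carries other codes, its p-values may be too small for a difference between stages. All 6 genes passed the filter on low counts in this comparison. GFRA3 did so through hPSC, since it did not pass among the day 11 libraries alone. GDNF, with 4 counts in each hPSC library, did so through day 11. For these genes the filter itself favoured the direction found.

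Set per kilobase of exon, the order of the genes differed between stages. In hPSC the mean level was highest for GFRA1 (2.67 CPM per kb) and then RET (1.52), followed by NRTN (0.88), GFRA2 (0.701), GFRA3 (0.363) and GDNF (0.0332). At 0.7 µM GFRA1 was at 4.36 CPM per kb and RET at 0.0505. At 7.5 µM NRTN (2.43) and GFRA2 (1.18) led, followed by GDNF (0.712), GFRA1 (0.49), GFRA3 (0.154) and RET (0.0508). By group mean RET was thus the second of the 6 in hPSC and the last at each day 11 dose. The order did not hold in every library. In replicate 2 GFRA3 lay below RET at 0.7, 3 and 7.5 µM, from 3 GFRA3 counts in each library. In replicate 2 of 7.5 µM GDNF (1.007) lay above GFRA2 (0.676).

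**Figure D3:**
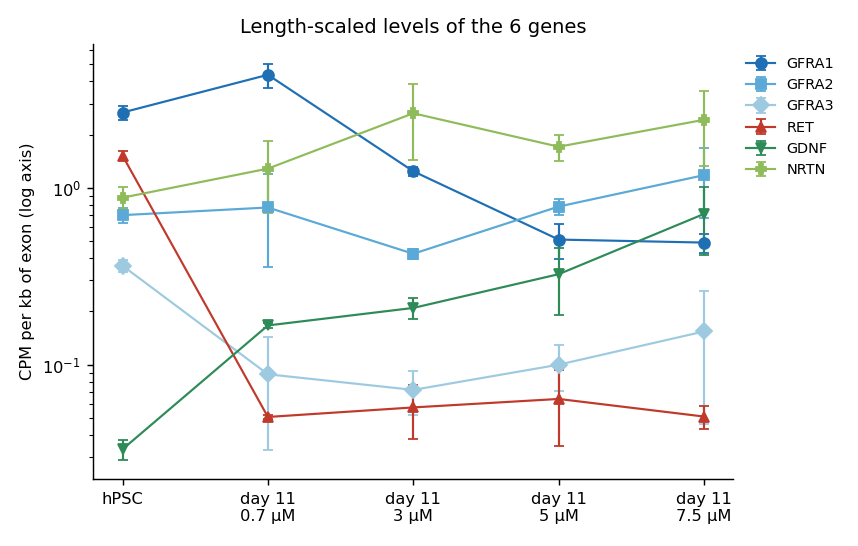
Mean level of the 6 genes in CPM per kilobase of exon (log axis) in hPSC and at day 11 by CHIR dose; bars run from the lower to the higher of the 2 libraries and lines only join group means. RET goes from 1.52 in hPSC to 0.0639 or less, GFRA1 from 4.36 at 0.7 µM to 0.49 at 7.5 µM, and GDNF from 0.167 to 0.712.

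At days 16 and 30, in the tables that stood apart, RET was listed at 5.05 and 2.77 CPM and at 9.19 and 11.5 CPM. GFRA1 was listed at 77.7 and 22.9 CPM at day 16 and at 22.4 and 23.1 at day 30. The day 16 replicates of GFRA1 thus differed more than the 2 days did, and the RET libraries of day 30 both lay above those of day 16. The difference of day 30 from day 16 was 1.59 ± 0.74 SE on the log2 scale for RET (adjusted p = 0.188, edgeR) and -0.87 ± 0.58 SE for GFRA1 (adjusted p = 0.386), where 11% of 15435 tested genes passed, 6.82% higher and 4.2% lower. With 1 library left out RET was at 1.44 to 1.79, and with the replicate block its adjusted p was 0.422 (edgeR). GFRA1 was at -1.30 without day 16 replicate 2 and at -0.10 without replicate 1. These are differences between listed counts and were not read as differences in expression.

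The other 4 genes did not pass the filter on low counts in the later tables. GFRA3 was listed with 0 counts in all 4 libraries. GFRA2, GDNF and NRTN had 2 to 5 counts a group. GFRAL, the hindbrain co-receptor for GDF15, was listed at 2.37 and 5.92 CPM at day 16 and 12.9 and 19.8 at day 30, with 0 counts in all 10 other libraries.

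The remaining ligands and co-receptors of the family were read from a list of 7 genes, of which 5 were tested in day 11 against hPSC. Of these, 2 rose and 1 fell, where 7.85% and 13.3% of all tested genes did, and the median log2 change was 1.11 against 0.04 over all tested genes. NCAM1, a neural adhesion molecule that can also bind GDNF with GFRA1, rose from 24.8 ± 1.06 to 216 ± 116 CPM (3.24 ± 0.66 SE, adjusted p = 0.0111, edgeR). Here and for the lists below, the ± on a day 11 CPM set against hPSC is the SD over all 8 day 11 libraries. It thus holds differences between doses as well as between replicates. SDC3, a heparan sulfate proteoglycan that binds GDNF, rose by 1.11 on the log2 scale, and ARTN, artemin, the ligand of GFRA3, fell by 3.45 to 0.381 CPM. All 3 calls were lost without hPSC replicate 1 and again without hPSC replicate 2. With the block within day 11, GDF15 also rose (1.79, adjusted p = 0.0163). PSPN, persephin, differed by -0.11 (adjusted p = 0.861). Its co-receptor GFRA4 had 1 count in each hPSC library and 0 in the 8 at day 11. None of the 5 passed between 7.5 and 0.7 µM, with or without the block, but 2 did in the blocked fit without 7.5 µM replicate 1.

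Of 21 adaptors and effectors of RET, 20 were tested, and 3 fell and none rose from hPSC to day 11, a share close to that of all tested genes (13.3% lower, 7.85% higher). The median log2 change was -0.23. GRB7, an SH2 adaptor, fell from 28.9 ± 0.519 to 0.591 ± 0.303 CPM (-5.54 ± 0.34 SE, adjusted p = 0.000105, edgeR). CBLC, an epithelial ubiquitin ligase, fell by 3.07 and DOK4, a docking protein, by 1.13. With either hPSC library left out, GRB7 was the 1 of the 20 that passed, and the DOK4 call was lost in 9 of 15 alternatives. With the block within day 11, 3 rose and 9 fell, where 25% and 29.6% of all tested genes did. Those whose call the block added were SHC1 (0.74), GAB2 (0.74) and SRC (0.84), which rose, and GRB2 (-0.91), GAB1 (-0.91), PTPN11 (-1.43), SOS1 (-0.72), CBL (-2.26) and LRIG1 (-1.57), which fell.

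Between 7.5 and 0.7 µM no gene passed of 18709 tested without a block (edgeR, 0% called), where 1641 had an unadjusted p under 0.05 and DESeq2 called 657. A block on replicate number, which pairs the day 11 libraries, gave 10.5% (5.64% higher and 4.87% lower at 7.5 µM), and the dose results that follow come from that blocked fit. Among the 20 tested adaptors 4 rose with the higher dose, which were DOK6 (1.53), DOK5 (1.25), SOS1 (1.22) and GRB10 (0.90), and CBLC fell by 4.00 to 0.0765 CPM. DOK5 and DOK6 are docking proteins found mainly in neural tissue, and SOS1 is the exchange factor that activates RAS. The count of 5 went to 1 and 0 when replicate 1 or 2 of 0.7 µM was left out, and to 3 and 9 when replicate 1 or 2 of 7.5 µM was.

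The third list held 9 genes that GDNF and RET induce in the ureteric bud. Several of them (ETV4, ETV5, DUSP6, SPRY1) are general targets of ERK signalling that FGFs also induce. From hPSC to day 11, 2 of the 9 fell and 1 rose, where 13.3% and 7.85% of all tested genes did, and the median log2 change was -1.06. The count of 3 was 5 without 0.7 µM replicate 2 and 2 without hPSC replicate 2, where the DUSP6 call was lost (adjusted p = 0.0893, edgeR). ETV4, an ETS factor, fell from 136 ± 8.9 to 10.6 ± 8.06 CPM (-3.87 ± 0.40 SE, adjusted p = 0.000655, edgeR), and DUSP6, an ERK phosphatase, by 2.11. CXCR4, a chemokine receptor, rose from 0.844 ± 0.121 to 128 ± 41.7 CPM (7.42 ± 0.64 SE, adjusted p = 0.000338). With the block within day 11, ETV5 (-1.37), SPRY1 (-1.26), MYB (-1.76) and MET (-1.21) fell as well, in a fit that called 29.6% of all tested genes lower.

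With dose, 5 of these 9 rose from 0.7 to 7.5 µM and none fell in the blocked fit, where 5.64% and 4.87% of all tested genes did, with a median log2 difference of 1.90 against 0.07 over all tested genes. SPRY1, a feedback inhibitor of receptor tyrosine kinases, rose from 9.37 ± 10.4 to 56.6 ± 21 CPM (2.89 ± 0.47 SE, adjusted p = 0.00527, edgeR). ETV4 rose from 3.15 ± 2.46 to 20.3 ± 6.06 CPM (2.69), MMP14, a membrane-bound matrix protease, by 2.02, ETV5 by 1.90 and DUSP6 by 1.63. With 0.7 µM replicate 1 left out, SPRY1 was the 1 that passed, and 4 passed with 7.5 µM replicate 1 left out. In the same 7.5 µM libraries RET was at 0.405 CPM or less. RET activity was not measured, and the cause of the higher levels of these genes was not tested.

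**Figure D4:**
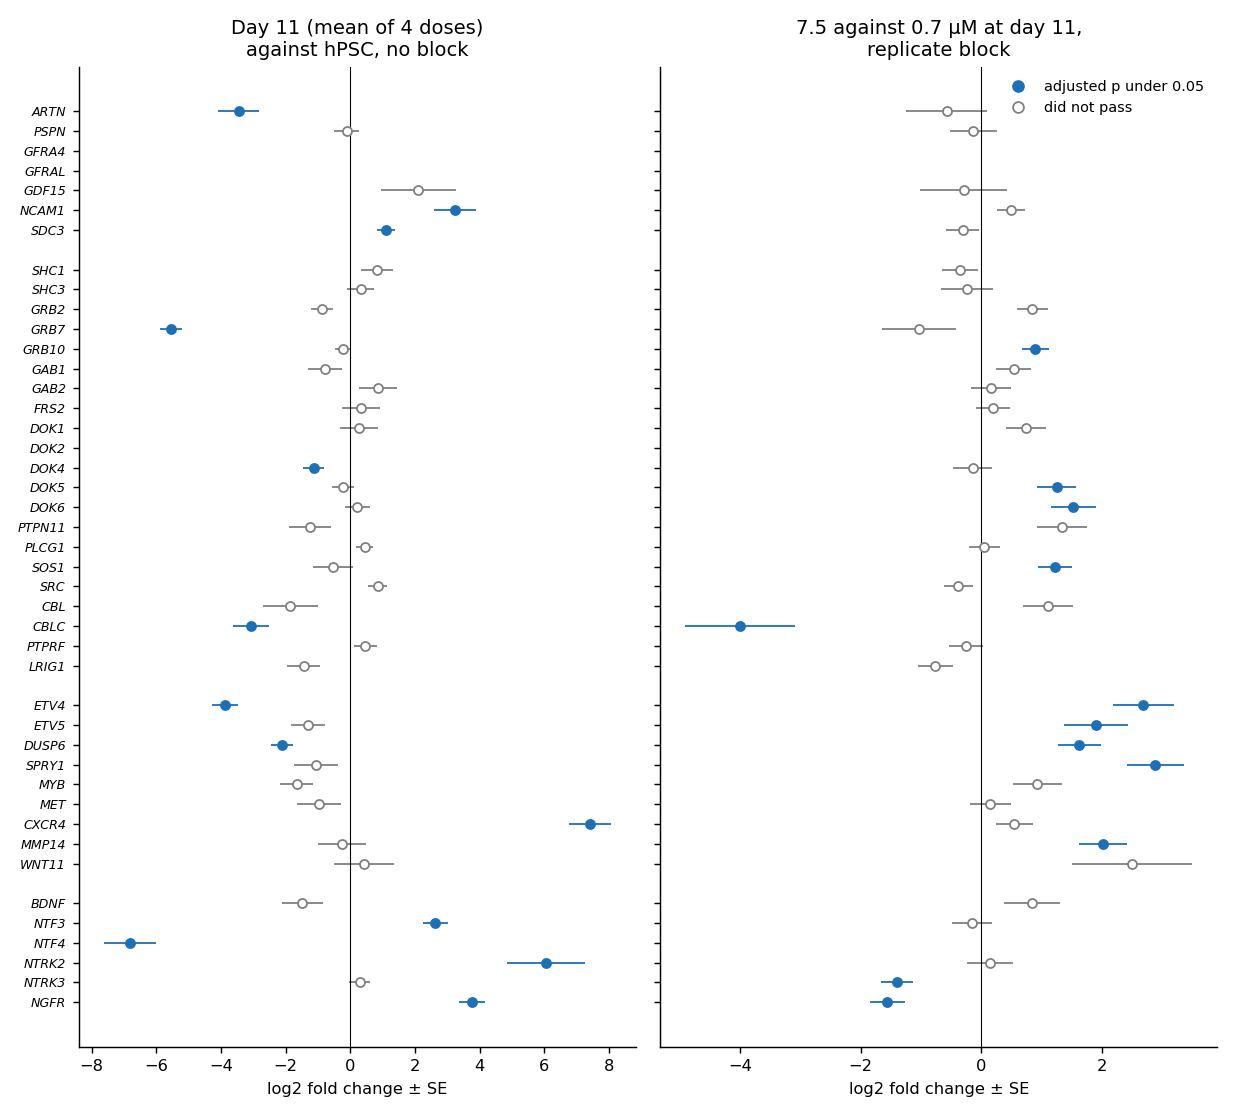
Log2 fold change with its standard error (horizontal axis) of the tested genes of the 4 lists, from top to bottom the other family ligands and co-receptors, the RET adaptors and effectors, the genes induced by GDNF and RET, and the neurotrophins and their receptors; left, day 11 against hPSC without a block, and right, 7.5 against 0.7 µM with the replicate block. Filled points passed at an adjusted p under 0.05 and genes without a point were not tested; 5 of the 9 induced genes are filled on the right, all above 0, and the fitted value of NTF4 on the left rests on a group with 1 count.

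Neurotrophins, the other family of neural growth factors that act through receptor kinases, were read from a list of 6 genes. All 6 were tested in day 11 against hPSC, and 3 rose and 1 fell, where 7.85% and 13.3% of all tested genes did, with a median log2 change of 1.46. NTRK2, the BDNF receptor, rose from 0.133 ± 0.075 to 8.7 ± 5.76 CPM (6.06 ± 1.21 SE, adjusted p = 0.0105, edgeR), NGFR, the shared p75 receptor, from 19.5 ± 0.831 to 249 ± 88.8 CPM (3.77), and NTF3, neurotrophin 3, from 2.13 ± 0.582 to 11.7 ± 2.39 CPM (2.63). NTF4, neurotrophin 4, went the other way, with 44 counts in hPSC and 1 at day 11, a ratio of 185 after scaling (95% interval 31.5 to 7470, counting error only). Leaving out hPSC replicate 1 left 2 of the 6 passing, and leaving out replicate 2 left 1. With the block within day 11, BDNF also fell (-1.69).

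With dose, none of the 5 neurotrophin genes tested rose and 2 fell in the blocked fit, where 5.64% and 4.87% of all tested genes did. NGFR fell by 1.56, from 299 ± 3.13 to 119 ± 53.4 CPM (adjusted p = 0.00952, edgeR), and NTRK3, the neurotrophin 3 receptor, from 32.8 ± 10.7 to 13.6 ± 1.78 CPM. None of the 5 passed in that fit when 0.7 µM replicate 2 was left out. Between days 30 and 16, MMP14 alone of the genes tested in the 4 lists passed, and it was lower at day 30 in those tables.

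Genes whose levels went most like GFRA1 over the 10 hPSC and day 11 libraries were sought among 13287 genes, by Pearson correlation of log2(CPM + 1). The 5 closest were PLK1S1 (r = 0.972), DGKB, a diacylglycerol kinase (0.951), FRMPD3 (0.946), DPP6, a subunit of potassium channels (0.945), and MFSD6 (0.942). DPP6 went from 12.9 CPM in hPSC to 30.1 at 0.7 µM, 6.65 at 3 µM, 2.64 at 5 µM and 2.68 at 7.5 µM, and DGKB from 13.8 to 19, 4.08, 2.65 and 2.98. Over the 8 day 11 libraries alone the 5 correlations were 0.933 to 0.968. For RET the 5 closest were CDCP1, LAMC3, TDGF1, ESRP2 and HPSE, at 0.998 or more over 10 libraries and 0.863 to 0.970 over the 8 of day 11. TDGF1, a NODAL co-receptor of stem cells, went from 257 CPM to 0.0223 to 0.194. These correlations are descriptions over libraries that share a stage and a replicate code.

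Marker lists of other cells in which this pathway is known were also summed. Motor neuron markers came to 0.12 to 0.527 CPM in hPSC and at most 2.73 at day 11, and serotonin neuron markers to at most 1.46 in these 10 libraries. Neural crest and enteric lineage markers came to 270 to 297 CPM in hPSC, 69.5 to 105 at 0.7 µM, 32.9 to 62.7 at 3 µM, 31.4 to 58.2 at 5 µM and 50.8 to 51.2 at 7.5 µM. Like GFRA1, this sum was higher in hPSC and at 0.7 µM than at the other doses. It was highest in hPSC, whereas GFRA1 was highest at 0.7 µM. The sums at 3 and 7.5 µM overlapped, whereas GFRA1 was lower at 7.5 µM than at 3 µM. FOXD3, a gene of this list, is also used by stem cells, and was at 0 in both libraries at 3 and at 5 µM. Kidney lineage markers came to 2.91 to 4.06 CPM in hPSC and 3.56 to 27.2 at day 11, with WT1 at 0 in both libraries of each dose. The part of these cells in the member levels was not tested.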

How the data were processed

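The authors deposited raw counts, 1 table for each library. Named in the submitters' processing notes, with no role, are hg19, DESeq2 1.12.4, HTSeq 0.5.3, featureCounts 1.4.2 and STAR 2.4.2a; what kit was used, its strand and the counter's settings are not stated there or in the labels. The 5 entries of each hPSC and day 11 table that name no gene, 37.4% to 44.3% of counts, were dropped, and CPM was computed over gene entries. Gene type, chromosome and exon length came from GENCODE 29, joined by identifier. Tests used edgeR 4.0.16 (R 4.3.3, limma 3.58.1): TMM, filterByExpr, robust quasi-likelihood fits, Benjamini-Hochberg over all genes tested, threshold 0.05. The code was run on simulated counts with the same spread for every gene and no replicate effect. That run cannot show how the tests behave on the spread of these libraries. DESeq2 1.42.0 was an alternative. Day 11 against hPSC contrasts the log-scale mean of the 4 doses with hPSC, in 1 fit of 10 libraries; dose used the 8 day 11 libraries and day 30 against day 16 its 4.

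Replicate numbers pair the day 11 libraries. The labels give 1 code to all replicate 1 libraries of day 11 and another to all of replicate 2, and same-numbered deviations from group means correlated at 0.64 to 0.86. No pair of replicates agreed within sampling noise (chi-square over degrees of freedom 7.36 or more).

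Members and gene lists were chosen with earlier results of these data known, and some listed genes are not reported here. Named are all 6 members, up to 4 passing genes of each list by size, those whose call the block changed, and the 5 genes most alike to GFRA1 and to RET with a group mean of at least 5 CPM. Alternatives were another scaling, DESeq2, no filter, the block, and each library left out.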

Additional observations from a re-analysis of the deposited data

How the results depend on the processing

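Genes called in day 11 against hPSC numbered 4152, but 6258 with DESeq2, 7523 with the replicate number as a block, 10732 with the block within day 11 (added after seeing the data) and 1114 to 4927 with 1 library left out. In 7.5 against 0.7 µM, 0 genes became 657 with DESeq2, 29 without a filter and 1967 with the replicate block; the blocked count was 754 and 822 without 0.7 µM replicates 1 and 2, and 2184 and 5613 without 7.5 µM replicates 1 and 2. In day 30 against day 16, 1702 became 1067 with the replicate block and 39 to 8081 with 1 library left out; hPSC and later numbers did not pair libraries (correlations -0.11 to -0.18 with day 11, and -0.22 between days 16 and 30), and pairing the latter crosswise gave 1749. Where a library was left out of a pair, the lone one was assumed to vary like the others.

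RET against hPSC kept its direction and call in all 19 alternatives (-4.90 to -4.34). GDNF ranged from 3.14 to 3.54 with 1 library left out and was 2.46 with 0.7 µM alone; its lost calls stand in the results. The plain replicate block made GFRA3 (-1.80, adjusted p = 0.0438, edgeR) and NRTN (1.22, adjusted p = 0.045) pass, and the block within day 11 gave -1.75 and 1.21. GFRA2 turned to -0.34 for 3 µM alone. In day 30 against day 16, RET ranged from 1.44 to 1.79 and GFRA1 from -1.30 to -0.10 with 1 library left out. The 7.5 to 0.7 µM ratio of GFRA1 was 0.0997 on TMM-scaled CPM against 0.112, and of NRTN 1.69 against 1.89. Within 1 replicate it was 1.41 to 1.9 for GFRA2, 1.4 to 1.83 for GFRA3 and 1.82 to 1.92 for NRTN. The causes were not tested. At day 11, GFRA3, GDNF, RET and NRTN had at most 198 counts a group.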
